A study of Mus musculus with 12 samples.

Results

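The germ cell RNA-binding protein genes Dazl, Ddx4, Ybx2, L1td1, Lin28a, Trim71, Dnd1, Nanos3 and Pum2 were followed in germ cells of female mouse embryos that developed with or without maternal vitamin C. They were chosen by symbol, and all 9 were found among the 12516 symbols of the expression table. All 9 also passed the filter on low values that kept 12432 genes for testing. Germ cells sorted as Oct4+ were profiled by RNA sequencing from 12 single embryos at embryonic day 13.5. The embryos were Gulo-/- on a C57BL/6 background, so neither group could make vitamin C, and both depended on what the mother ate. In 6 embryos the mother's vitamin C was withdrawn over the first 2 weeks of gestation, and in the other 6 it was supplied at a physiological level.

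Germ cells leave much of their regulation to proteins that bind RNA, because these decide which stored or newly made messages are translated, kept or destroyed. Some of these proteins belong to the early, pluripotent-like germ cell, such as LIN28A, TRIM71 and L1TD1. Others guard the migrating and colonizing germ cell, such as DND1 and NANOS3, which together bring target messages to the CCR4-NOT complex that shortens poly(A) tails. Yet others come on as the cell settles in the gonad and prepares for meiosis, such as DAZL and DDX4, with the Y-box protein YBX2 known for storing messages in oocytes and spermatids.

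In withdrawn embryos, 2 of the 9 genes were lower, Dazl and Ddx4, and 2 were higher, L1td1 and Dnd1. Nanos3 missed the threshold narrowly on the higher side, Ybx2 was not called, and Lin28a, Trim71 and Pum2 had changes close to 0. Calls rest on limma, a linear model whose variances are moderated across genes, with a Benjamini-Hochberg adjusted p below 0.05 over all genes tested. Over all 12432 genes, 7.75% were called lower and 6.22% higher, or 14.0% in either direction (964 lower and 773 higher genes, against 795 and 904 with median centring). The median log2 fold change was -0.01 for the 9 genes, as it was for all genes tested, and the median absolute change was 0.17 for the 9 genes and 0.08 for all genes. In none of the 9 genes were the withdrawn and supplied embryos fully apart, whereas 4.49% of all genes had groups that did not overlap, 2.34% lower and 2.15% higher. In bulk samples such as these, fewer cells that express a gene and less of its RNA per cell cannot be told apart.

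**Figure D1:**
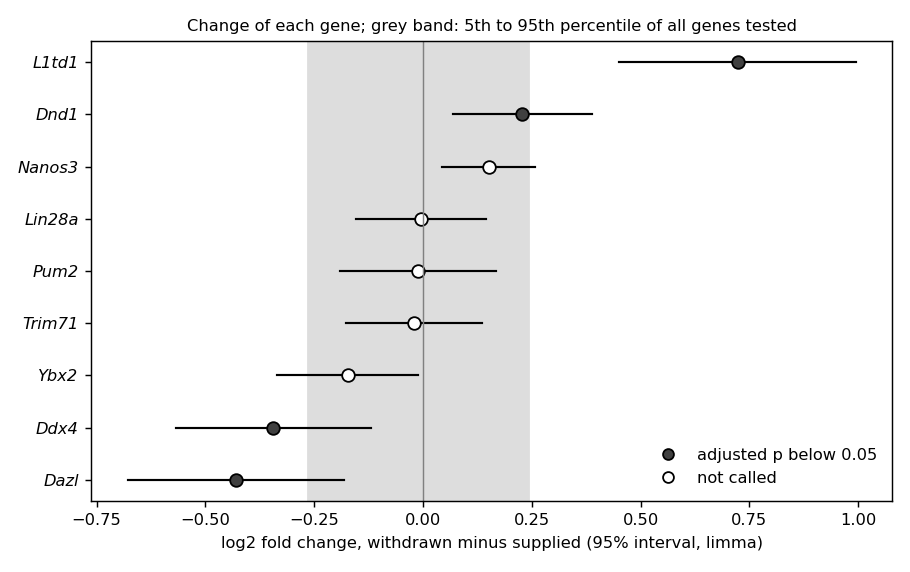
Log2 fold change (withdrawn minus supplied, horizontal axis) of the 9 genes with 95% intervals from limma, filled where the adjusted p is below 0.05. L1td1 at 0.72, Dazl at -0.43 and Ddx4 at -0.34 lie outside the grey band, which runs from -0.27 to 0.24 and holds the 5th to 95th percentiles of all genes tested.

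All values are normalized log2 expression as the authors deposited them, with no read depth given. Any 2 libraries correlated across genes at 0.986 to 0.999. The titles carry a number from 1 to 4 under either diet, with 2 embryos per diet in numbers 1 and 4 and 1 per diet in numbers 2 and 3. A further code, the letter F with a digit, tells apart the embryos that share a number and diet. The labels do not say what the number or this code stands for. Within a diet, deviations from the group mean correlated with a median r of 0.21 in the 4 pairs of embryos that shared a number, and of -0.25 in the 26 pairs that did not. Subtracting the group mean by itself pulls such correlations below 0, so the negative value is no sign of opposite changes. The tests treat embryos as independent, so if those that share a number are littermates the p-values are too small. In a fit with a random effect for embryos of 1 number and diet, 0 of the 9 genes were called lower and 1, L1td1, higher. That fit called 886 genes over the whole table, against 1737 without the random effect.

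All 9 markers of germ cells lay above the median gene. Of these, Dazl and Ddx4 were called lower and 5 were called higher, among them Pou5f1 (0.45), which encodes the Oct4 of the sort gate. Of 9 supporting cell markers tested, 0 lay above the median gene, 9 were negative, 6 had an unadjusted p below 0.05 and 1, Kitl, was lower. Foxl2, which marks ovarian supporting cells, was at 3.68 in withdrawn and 3.74 in supplied embryos, near the lowest value of the table (2.82). All 5 stromal markers tested were negative, 4 had an unadjusted p below 0.05 and 1, Fbln1, was lower at 9.33 in withdrawn and 9.63 in supplied embryos. The mean of the supporting cell markers ran from 4.94 to 5.11 in withdrawn and from 5.02 to 5.26 in supplied embryos. That of the stromal markers ran from 6.18 to 6.32 in withdrawn and from 6.21 to 6.62 in supplied embryos. Of 4 endothelial and 2 macrophage markers tested limma called 0 (1 each at an unadjusted p below 0.05, 0 by the exact test). Of 4 markers of mesonephric epithelium 1, Epcam, was higher. Epcam was at 11.24 in withdrawn and 11.02 in supplied embryos, whereas Pax8 of the same list was at 4.02 and 4.00. Pecam1 of the endothelial list, at 11.38 and 11.18, likewise lay far above Kdr, at 3.82 and 3.88. Which cells the Epcam and Pecam1 messages came from was not tested. With the mean of the 14 supporting and stromal markers as a covariate, 0 of the 9 genes were called, at log2 fold changes of -0.55 for Dazl, -0.44 for Ddx4, 0.63 for L1td1 and 0.24 for Dnd1, and 1 gene was called over the whole table. The part of these markers in the results was not tested beyond this.

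Dazl encodes an RNA-binding protein that raises the translation of its targets and that germ cells need before they can enter meiosis. Its mean deposited log2 value, for which no correction for length is stated, was at the 99.1 percentile of all genes. Withdrawn embryos had a lowest value of 12.25, a median of 12.93 and a highest of 13.10, against 12.78, 13.26 and 13.35 in supplied embryos. In Dazl, 5 of the 6 supplied embryos lay above every withdrawn embryo, and the exception was supplied replicate 4, the lowest of its group. The means were 12.77 ± 0.34 in withdrawn and 13.20 ± 0.22 in supplied embryos (SD, n = 6 each). The log2 fold change was -0.43 (SE 0.12, limma adjusted p = 0.0212), or 1.35-fold lower, and all 6 withdrawn embryos lay below the supplied mean. The call was kept in 9 of the 12 fits that left out 1 embryo, and was lost without supplied replicate 5 (adjusted p = 0.0543), supplied replicate 6 (0.0530) or withdrawn replicate 4 (0.0577).

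Ddx4 encodes the mouse Vasa homologue, a DEAD-box RNA helicase of the germ cell granules in which piRNA factors gather. Ddx4 had a lowest value of 12.20, a median of 12.81 and a highest of 13.00 in withdrawn embryos, against 12.75, 13.12 and 13.24 in supplied embryos. The groups overlapped, again through supplied replicate 4 at the low end and withdrawn replicate 3 at the high end. Its log2 fold change was -0.34 (SE 0.11, limma adjusted p = 0.0362), with all 6 withdrawn embryos below the supplied mean. Fits that left out 1 embryo gave changes from -0.40 to -0.24, and 5 of the 12 kept the call.

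Ddx4 RNA is itself a reported target of DAZL, and the 2 genes varied together from embryo to embryo. After the mean of each diet was removed, Dazl and Ddx4 correlated with a Pearson r of 0.96 (Spearman rho 0.91) over the 12 embryos, and with an r of 0.91 over 10 embryos once the 2 farthest in Dazl were left out. This was the highest of the 36 correlations among the 9 genes. All points share the libraries and their normalization, so the value is a description. The difference of Dazl and Ddx4 within an embryo was 0.06 ± 0.07 in withdrawn and 0.15 ± 0.09 in supplied embryos (SD, n = 6 each), a change of -0.09 that did not pass an exact two-sided permutation test (p = 0.0952, adjusted p = 0.222 over 7 pairs).

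**Figure D2:**
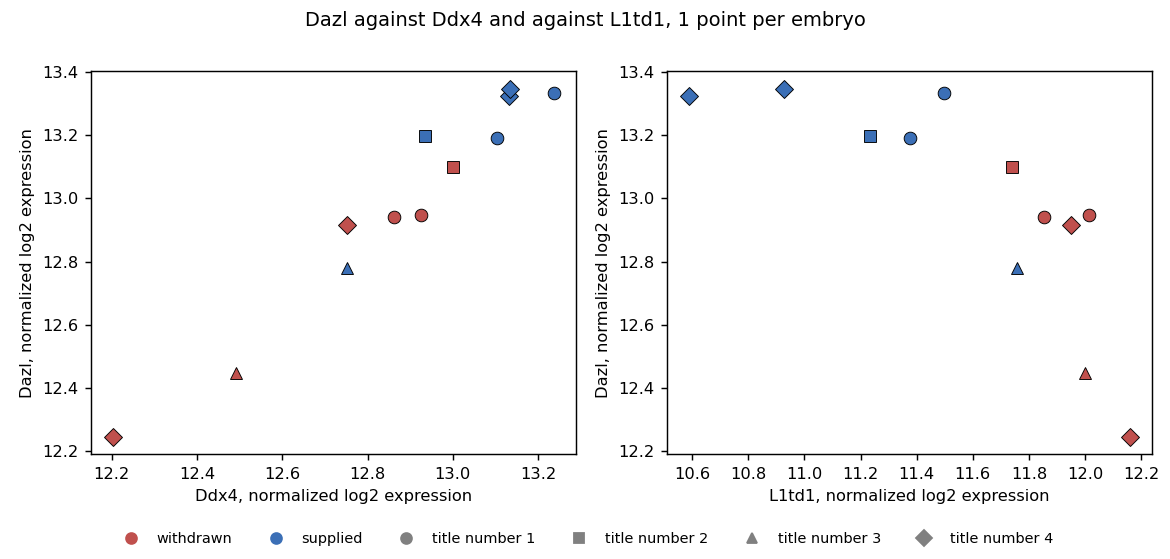
Normalized log2 expression of Dazl (vertical axes) against Ddx4 (left) and L1td1 (right), 1 point per embryo, coloured by diet and shaped by title number. Dazl and Ddx4 lie along 1 rising line from withdrawn replicate 5, at 12.25 and 12.20, up to the supplied embryos, whereas Dazl and L1td1 scatter more widely (Pearson r of -0.58 within diets, and -0.29 without the 2 embryos farthest in Dazl).

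The promoter windows of Dazl, Ddx4 and L1td1 are shown because these 3 genes had the largest changes and the study, by its title, concerns DNA demethylation. Each is the 250 bases before the RefSeq start on build GRCm38.p6, read along the gene's strand, with every CpG, the base pair step that carries DNA methylation, in capitals. No methylation was measured in the table used here. The windows lie at chr17:50293621-50293870 on the minus strand (Dazl), chr13:112652311-112652560 on the minus strand (Ddx4) and chr4:98726504-98726753 on the plus strand (L1td1).
Dazl: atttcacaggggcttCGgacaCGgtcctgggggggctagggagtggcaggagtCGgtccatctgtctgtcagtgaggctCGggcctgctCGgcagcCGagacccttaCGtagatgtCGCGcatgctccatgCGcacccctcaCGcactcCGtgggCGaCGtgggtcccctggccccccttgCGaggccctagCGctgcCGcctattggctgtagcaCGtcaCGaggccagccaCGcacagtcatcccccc
Ddx4: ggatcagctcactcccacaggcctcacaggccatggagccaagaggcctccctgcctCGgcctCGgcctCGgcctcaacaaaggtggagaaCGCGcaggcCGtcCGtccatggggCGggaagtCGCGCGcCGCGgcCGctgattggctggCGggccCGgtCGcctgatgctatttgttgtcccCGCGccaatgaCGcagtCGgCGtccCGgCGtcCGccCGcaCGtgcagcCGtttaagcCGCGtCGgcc
L1td1: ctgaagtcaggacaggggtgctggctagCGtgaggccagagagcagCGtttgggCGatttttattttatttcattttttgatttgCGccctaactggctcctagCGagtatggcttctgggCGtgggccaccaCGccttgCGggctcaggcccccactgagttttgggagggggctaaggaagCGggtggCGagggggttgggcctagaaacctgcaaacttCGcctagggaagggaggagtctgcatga
The Dazl window holds 20 CpG sites and the Ddx4 window 31, against 11 in that of L1td1 and a median of 6 over the 32851 windows of the table. The windows of Nanos3 and Lin28a hold 3 and 7, that of Trim71 17, and those of Ybx2 and Pum2 between 29 and 36 each. The window of Dnd1 was not used here. CpG-rich windows thus occur both among the genes called lower and among those with changes near 0. The letters CACGTG, an E-box that MAX-type factors can bind, were searched on both strands and found in the Ddx4 window, 29 bases before the start. They occur in 6.02% of all windows. The letters GCGGGAA, found in many sites of E2F-type factors, occur in 3.82% of all windows, among them that of Ddx4, 136 bases before the start, and 1 of the 3 of Pum2. Neither was found in the windows of Dazl or L1td1.

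Ybx2 had a lowest value of 9.22, a median of 9.26 and a highest of 9.44 in withdrawn embryos, against 9.23, 9.46 and 9.76 in supplied embryos. In Ybx2, 3 supplied embryos lay above all withdrawn ones, and the rest overlapped. The log2 fold change was -0.17 (95% interval -0.33 to -0.01) and was not called over all genes (limma adjusted p = 0.140). It was called without supplied replicate 4 (adjusted p = 0.0466). Ybx1, a paralog that binds messages in most cell types, was at 12.69 ± 0.15 in withdrawn and 12.34 ± 0.18 in supplied embryos (SD, n = 6 each), and was called higher (0.35, SE 0.08, limma adjusted p = 0.00890). The difference of Ybx2 and Ybx1 within an embryo was -3.40 ± 0.16 in withdrawn and -2.88 ± 0.29 in supplied embryos. This change of -0.52 passed the exact two-sided permutation test (p = 0.00649, adjusted p = 0.0227 over 7 pairs chosen with earlier results known). It joins the Ybx2 change of -0.17, which was not called, to the larger Ybx1 change of 0.35, and so is not a result about Ybx2 alone. Of the 6 withdrawn embryos, 4 lay below every supplied embryo in this difference. Without title number 4 the change was -0.44 and did not pass (exact permutation adjusted p = 0.300), though 4 against 4 embryos allow no unadjusted p below 0.0286. Adjusted over 7 pairs, a pass there needs most of the pairs at that smallest p, so nothing is concluded from it.

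**Figure D3:**
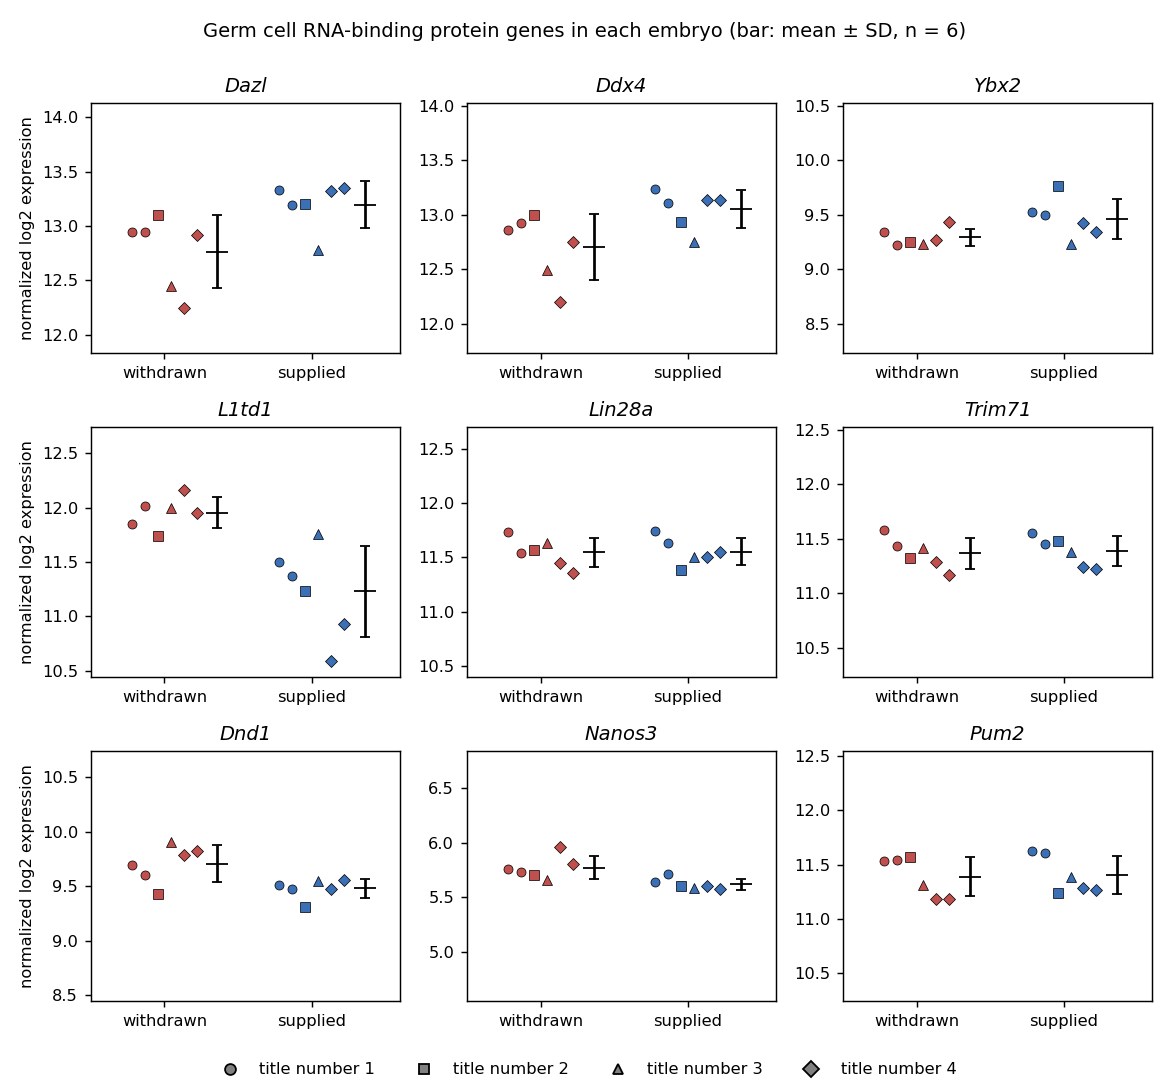
Normalized log2 expression of each of the 9 genes in each embryo, with withdrawn embryos left and supplied embryos right, shapes for title numbers, and bars for the mean ± SD of 6 embryos. Every panel spans the same number of log2 units. L1td1 is at or above 11.74 in all withdrawn embryos and reaches that level in supplied replicate 4 alone.

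L1td1 showed the largest change of the 9 genes and ranked 64th of all genes by p. It encodes an RNA-binding protein of pluripotent cells that descends from the first open reading frame of a LINE-1 transposon and that has been found with LIN28 in human embryonic stem cells. Withdrawn embryos had a lowest value of 11.74, a median of 11.97 and a highest of 12.16, against 10.59, 11.30 and 11.76 in supplied embryos. All supplied embryos lay below the withdrawn range except supplied replicate 4, which exceeded 1 withdrawn embryo. The means were 11.95 ± 0.14 in withdrawn and 11.23 ± 0.42 in supplied embryos (SD, n = 6 each), so the spread was wider among supplied embryos. The log2 fold change was 0.72 (SE 0.13, limma adjusted p = 0.00280), or 1.65-fold higher. It kept its call in each of the 12 fits that left out 1 embryo, at changes from 0.59 to 0.83.

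Lin28a, whose protein blocks the maturation of the let-7 family of miRNAs and which mouse primordial germ cells need for their specification, had a change near 0. Its values ran from 11.36 to 11.73 with a median of 11.55 in withdrawn embryos, against 11.38 to 11.75 with a median of 11.52 in supplied embryos. The log2 fold change was -0.01, and its 95% interval reached from -0.15 to 0.14. Within an embryo, Lin28a minus L1td1 was -0.41 ± 0.23 in withdrawn and 0.32 ± 0.40 in supplied embryos (SD, n = 6 each). This change of -0.73 passed the exact two-sided permutation test (p = 0.00649, adjusted p = 0.0227 over 7 pairs chosen with earlier results known), with all 6 withdrawn embryos below the supplied mean. As the Lin28a difference was -0.01, the value restates the change of L1td1, which did not pass the exact test over all genes (adjusted p = 0.0598). That test passed only genes at its smallest p of 0.00216 (exact permutation adjusted p = 0.0482), whose groups do not overlap. Without title number 4 the change of Lin28a minus L1td1 was -0.38 and did not pass (exact permutation adjusted p = 0.300), with the same limit as for Ybx2 and Ybx1.

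Trim71, the mouse homologue of worm lin-41 and a let-7 target that acts as an RNA repressor and ubiquitin ligase, also had a change near 0. Its values ran from 11.17 to 11.58 with a median of 11.37 in withdrawn embryos, against 11.22 to 11.55 with a median of 11.42 in supplied embryos, a log2 fold change of -0.02 (95% interval -0.18 to 0.13). Lin28a minus Trim71 within an embryo was 0.18 ± 0.05 in withdrawn and 0.16 ± 0.15 in supplied embryos (exact permutation p = 0.859, adjusted p = 0.859). With median centring the Lin28a change was 0.01.

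Lin28a and Trim71 are both tied to let-7, so matches to its seed were searched in the messages of the 9 genes. All 9 mature let-7 and miR-98 sequences in the reference share the seed GAGGUAG, shown in capitals for let-7a, and its complement CTACCTC was searched on the sense strand of the longest coding transcript of each gene in GENCODE M21. It occurs in 10.6% of the 10784 3′ untranslated regions of tested genes, whose median length is 1184 bases. Lin28a has 2 matches in 2775 bases and Trim71 has 4 in 5512 bases, and the other 7 genes have 0. Longer regions have more chances to hold a match. The level of let-7 was not measured in the table used here. The sites are shown with the match in capitals because these are the letters a let-7 seed can pair with.
mmu-let-7a-5p: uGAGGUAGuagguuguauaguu
Lin28a, site 1: ctgttgaaCTACCTCattttt
Lin28a, site 2: ccacaaacCTACCTCactgtg
Trim71, site 1: cctaagtcCTACCTCagctta
Trim71, site 2: atttctatCTACCTCaactct
Trim71, site 3: tggattttCTACCTCaatttt
Trim71, site 4: aaagttgtCTACCTCacgtcg

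Dnd1 encodes dead end, whose loss in mice removes germ cells and gives rise to teratomas. Withdrawn embryos had a lowest value of 9.43, a median of 9.74 and a highest of 9.91, against 9.31, 9.49 and 9.56 in supplied embryos. For Dnd1, 5 of 6 withdrawn embryos lay above all supplied embryos, and the groups overlapped through withdrawn replicate 3. Its log2 fold change was 0.23 (SE 0.08, limma adjusted p = 0.0498), only just under the threshold, and the call was lost in 10 of the 12 fits that left out 1 embryo. Those fits gave changes from 0.19 to 0.28.

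Nanos3, which keeps migrating mouse germ cells alive and partners with DND1, had the lowest deposited log2 values of the 9 genes, at the 19.0 percentile of the table and also lowest per kilobase of transcript. It ran from 5.65 to 5.96 with a median of 5.75 in withdrawn embryos, against 5.57 to 5.71 with a median of 5.60 in supplied embryos. For Nanos3, 4 of 6 withdrawn embryos lay above all supplied embryos. Its log2 difference was 0.15 (SE 0.05) and was not called (limma adjusted p = 0.0525), although it passed with quantile normalization (0.19, adjusted p = 0.0226) and with median centring (0.17, adjusted p = 0.0408). Its spread within diets was at the 21.9 percentile of all genes, and the deposited log2 scale may compress changes at so low a level. Dnd1 minus Nanos3 within an embryo was 3.94 ± 0.18 in withdrawn and 3.86 ± 0.11 in supplied embryos and this change of 0.08 did not pass (exact permutation p = 0.420, adjusted p = 0.588).

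Pum2 encodes a Pumilio protein that recognises a short U-rich element in messages and that works with Nanos in the fly germline. It ran from 11.19 to 11.57 with a median of 11.42 in withdrawn embryos, against 11.24 to 11.63 with a median of 11.33 in supplied embryos. The log2 fold change was -0.01 (95% interval -0.19 to 0.17), and with median centring it was 0.00439. Pum2 minus Nanos3 within an embryo was 5.62 ± 0.26 in withdrawn and 5.78 ± 0.14 in supplied embryos (exact permutation p = 0.214, adjusted p = 0.375). Pum2 varied along with Lin28a across embryos (Pearson r of 0.77 and Spearman rho of 0.77 over 12 embryos, r of 0.68 without the 2 farthest), as a description of these libraries.

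The Pumilio element, written TGTANATA in the transcript, occurs in 27.4% of the same 10784 3′ untranslated regions. It was found in 2 of the 9 genes, with 2 matches in Pum2 itself and 1 in Lin28a, and is shown in capitals with its flanks.
Pum2, site 1: tatagagaTGTATATAgaatta
Pum2, site 2: tacagaatTGTATATActtata
Lin28a: cctagttgTGTAAATAtaaatg

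Per kilobase of transcript, Dazl and Ddx4 stood highest and Nanos3 lowest. The level was taken as the deposited log2 value minus log2 of the length in kilobases of the longest coding transcript in GENCODE M21, so it depends on that choice. It also assumes that the deposited values were not already corrected for length, which the sources do not state. Dazl averaged 11.41 ± 0.35 and Ddx4 11.29 ± 0.30 over the 12 embryos (SD, n = 12), and their ranges overlapped. L1td1 (10.03 ± 0.48) and Lin28a (9.74 ± 0.12) followed, also overlapping. The mean of L1td1 was above that of Lin28a in withdrawn embryos (10.40 ± 0.14 against 9.74 ± 0.13, SD). In supplied embryos the means, 9.67 ± 0.42 and 9.74 ± 0.12, lay closer together than the spread of L1td1, so no order is read from them. Supplied replicates 5 and 6, both of title number 4, had the lowest deposited L1td1 values of their group, 10.59 and 10.93. Then came Dnd1 at 9.06, Pum2 at 8.74 and Ybx2 at 8.63, neighbours whose ranges overlapped, and Trim71 at 8.16. Nanos3 lay apart at 6.15 ± 0.11.

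The spread between embryos of a diet also differed among the genes. It was 0.31 for L1td1 and 0.28 for Dazl (SD within diets), above that of 99.6% and 99.2% of all genes tested, and 0.25 for Ddx4, at the 98.4 percentile. It was 0.13 for Lin28a and 0.14 for Trim71, at the 61.7 and 69.7 percentiles. The genes with the most similar pattern, searched among 6216 others with a mean at or above the median gene, were named by Pearson r over the 12 embryos after the mean of each diet was removed. For Dazl they were Tex14 (r of 0.97), Ddx4 (0.96), Pdk3 (0.94) and Ap3m1 (0.94). For Ddx4 they were Ap3m1 (0.98), Tbpl1 (0.97), Nfic (0.97) and Dazl (0.96). For L1td1 they were Mybbp1a (0.99), Gldc (0.98), Akap12 (0.98) and Arid5b (0.97). These were picked as the highest of many values and carry no test.

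Within title numbers, compared here without a test of each, L1td1, Dnd1 and Nanos3 were higher and Dazl was lower in withdrawn embryos under all 4 numbers, whereas Ddx4 was lower under 3. The sizes differed. Withdrawn minus supplied was 1.30 for L1td1 in title number 4, against 0.50 in number 1, 0.51 in number 2 and 0.24 in number 3. For Dazl it was -0.76 in number 4, against -0.32, -0.10 and -0.33 in numbers 1, 2 and 3. For Ddx4 it was -0.66 in number 4, against -0.28, 0.06 and -0.26.

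The difference between the diet effects in title numbers 4 and 1 was tested in limma over all genes, where 0.121% were called. Of the members, L1td1 had the largest such difference, 0.80 (SE 0.16), which did not pass adjustment over all genes (limma adjusted p = 0.0689). For Dazl it was -0.44 (SE 0.20, limma adjusted p = 0.398) and for Ddx4 -0.38 (SE 0.18, limma adjusted p = 0.401). Without the 4 embryos of title number 4, 0 of the 9 genes were called, beside 49 of all 12432 genes, against 1737 with every embryo. There, L1td1 was at 0.44 (limma adjusted p = 0.0530), Dazl at -0.27 (0.297), Ddx4 at -0.19 (0.398) and Dnd1 at 0.20 (0.305). Without the 4 of title number 1, L1td1 alone of the 9 was called, at 0.84 (limma adjusted p = 0.0125), beside 729 of all genes.

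**Figure D4:**
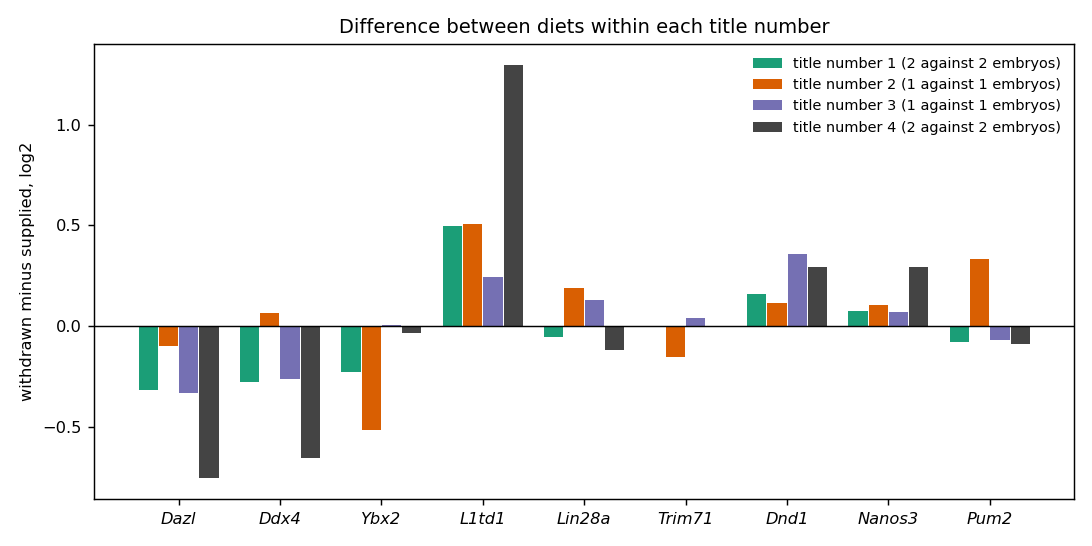
Difference between the diet means (withdrawn minus supplied, log2) for each of the 9 genes within each title number. The bars of number 4 are the longest for L1td1 (1.30), Dazl (-0.76) and Ddx4 (-0.66), and those of Trim71 stay within -0.16 and 0.04.

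Among 33 other RNA-binding proteins of germ cells tested, 4 were lower and 2 higher, beside 7.75% and 6.22% of all genes. The log2 fold change was negative in 28 of the 33, with a median of -0.06, and in 6638 of the 12432 genes tested, with a median of -0.01. Lower were Ythdc2 (-0.37, limma adjusted p = 0.0134), an RNA helicase needed for meiosis, Cpeb1 (-0.31, adjusted p = 0.0198), which controls cytoplasmic poly(A) tails, Rbm46 (-0.24, adjusted p = 0.0229), a meiotic RNA-binding protein, and Boll (-0.22, adjusted p = 0.0248), the relative of Dazl. Higher were Ybx1 and Igf2bp1 (0.20, adjusted p = 0.0482). Lin28b, the paralog of Lin28a, was at -0.12 (adjusted p = 0.276). Leaving out supplied replicate 5 gave 2 lower calls, leaving out supplied replicate 4 gave 7, and any other single embryo 3 to 5, and the higher calls were 1 or 2. With the random effect 3 were lower and 1 higher, without title number 1 there was 1 in either direction, and without title number 4 limma called 0 of the 33. Over all genes, these fits called 886, 729 and 49. With the supporting and stromal markers as a covariate 0 of the 33 were called, and 1 gene over the whole table.

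Among 14 genes tested from a list built around the germ cell granules of DDX4, 7 were lower and 1 higher, beside 7.75% and 6.22% of all genes. The median log2 fold change was -0.13, against -0.01 for all genes tested. The lower ones included Mael (9.02 ± 0.32 in withdrawn and 9.78 ± 0.28 in supplied embryos, -0.77, limma adjusted p = 0.00209), Tdrd1 (-0.66), Mov10l1 (-0.47) and Asz1 (-0.37). They also included Tdrd7, Ddx25 and Gtsf1, the last at 3.69 in withdrawn and 3.77 in supplied embryos and so near the lowest values of the table. Prmt5, the arginine methyltransferase that modifies Piwi proteins, was higher (0.30, limma adjusted p = 0.0116). The lower calls were 6 with the random effect, 4 without title number 1, 2 without title number 4, 4 without supplied replicate 5 and 6 or 7 without any other single embryo. With the mean of the supporting and stromal markers as a covariate, 0 of the 14 were called in either direction. That fit called 1 gene over the whole table. Over all genes, 886 were called with the random effect, 729 without title number 1 and 49 without title number 4.

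Of 10 reported DAZL target RNAs, 2 were lower and 2 higher, beside 7.75% and 6.22% of all genes. Lower were Sycp1 of the synaptonemal complex (-1.23, limma adjusted p = 3.81e-05) and Ddx4, itself 1 of the 9 genes. The pluripotency factors Sox2 (0.35, adjusted p = 0.00721) and Sall4 (0.23, adjusted p = 0.0304) were higher. The other 6 were not called, among them Sycp3 (-0.26, adjusted p = 0.113), Casp2 (-0.19, adjusted p = 0.0759) and Suz12 (0.07, adjusted p = 0.589). With the random effect 1 was lower and 1 higher, and without title number 4, 1 was lower and 0 higher. Over all genes, these fits called 886 and 49. With the supporting and stromal markers as a covariate 1 was lower and 0 higher, and 1 gene was called over the whole table. Leaving out single embryos gave 1 to 3 lower, with 3 without supplied replicate 4 or withdrawn replicate 2, and 1 or 2 higher.

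The lists for the machinery through which these proteins act stand beside 7.75% of all genes called lower and 6.22% called higher. Of 15 genes of the CCR4-NOT deadenylase and its adaptors, limma called 0, and the smallest p was that of the catalytic subunit Cnot6l (-0.23, adjusted p = 0.0616), followed by the adaptors Tob2 (-0.22, adjusted p = 0.102) and Tob1 (-0.15, adjusted p = 0.197). At an unadjusted p below 0.05 there were 2, and the exact permutation test over all genes, which passes only genes whose groups do not overlap, called 0. Limma called 2 of these genes lower without supplied replicate 4, and 1 each without withdrawn replicate 2 or withdrawn replicate 6. Of 16 genes of processing bodies and decapping, the decapping enzyme Dcp2 (0.37, limma adjusted p = 0.00801) and the helicase Ddx3x (0.23, adjusted p = 0.0453) were higher. Of 18 genes of let-7 and miRNA processing, the export receptor Xpo5 (0.29, adjusted p = 0.0205) and Prdm1 (0.26, adjusted p = 0.0438), a let-7 target and germ cell specifier, were higher. With the random effect 1 gene was higher in either of these 2 lists. Without single embryos the higher calls were 1 or 2 for processing bodies and 0 to 2 for miRNA processing, with 0 without supplied replicate 5 or supplied replicate 6, and the lower calls were up to 1 and up to 2. Median log2 fold changes were -0.02, -0.00388 and -0.01 in these 3 lists, and without title number 4 none of their genes was called by limma. None was called either with the supporting and stromal markers as a covariate. Over the whole table, 886 genes were called with the random effect, 49 without title number 4 and 1 with this covariate.

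**Figure D5:**
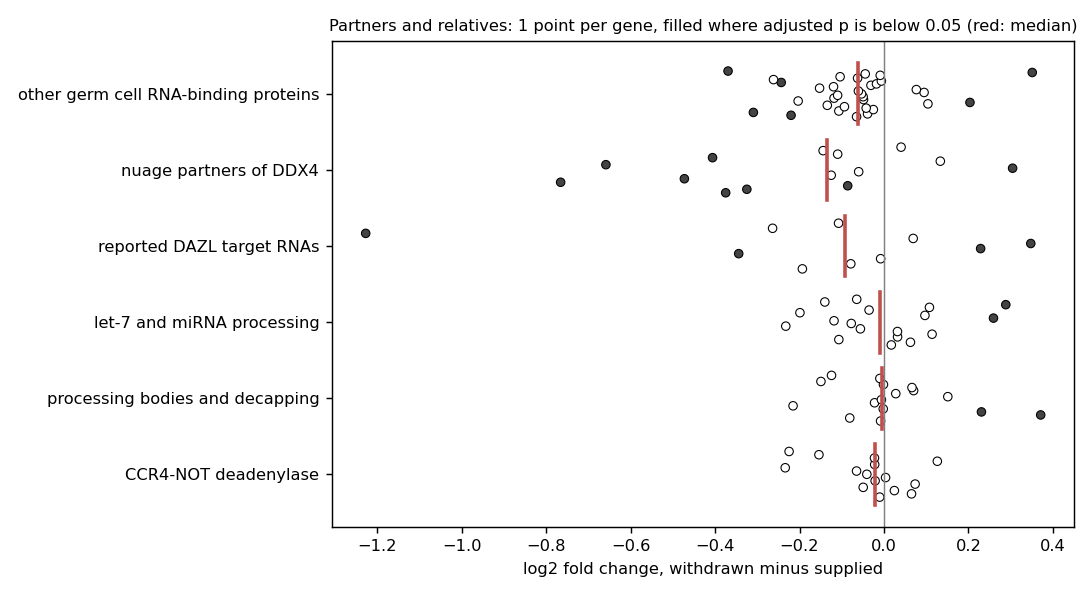
Log2 fold change (withdrawn minus supplied) of each gene in 6 lists of partners and relatives of the 9 genes, filled where the limma adjusted p is below 0.05, with the median of each list in red. The list built around the granules of DDX4 has the lowest median of the 6 lists, -0.13, and the CCR4-NOT genes lie between -0.23 and 0.13 with 0 called.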

How the data were processed

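RNA sequencing of sorted female germ cells gave 12 libraries, 6 per diet. The authors deposited 1 table of normalized log2 expression, with 1 column per embryo. Trim Galore 0.4.0, FastQC, TopHat2 2.0.13, DESeq2 1.10.1 and build mm9 are named in the submitters' processing notes. Their roles, the annotation, the counting, any filter and the way the log2 scale was made were not given in the sources used here. Library depth and counting error are therefore unknown.

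From this table, genes with a mean of at least log2(10), 3.32, were kept (12432 of 12516). Diets were compared with limma 3.58.1 (R 4.3.3, variance trend) over all 12 embryos with no covariate, and p-values were adjusted by Benjamini-Hochberg over all genes tested. Differences between paired genes within an embryo, 7 in all, were compared by exact two-sided permutation over 924 arrangements, whose smallest p is 0.00216. Of these, 1 pair is not reported here. On simulated data for this comparison with 200 of 12432 genes changed, 93% were recovered at a log2 change of 0.5 and 100% at 1. Of the calls made there 6.31% were false, and with no gene changed there were 0 calls. Every simulated gene and embryo was drawn independently. These rates therefore do not cover embryos that vary together, as those sharing a title number may. Alternatives covered the filter, scaling, variance model, exact test, title number, markers of somatic cells, threshold and single embryos left out.

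All 9 genes are named, with up to 4 genes of each further list by smallest p, the partners in pairs, and the 4 genes most like Dazl, Ddx4 and L1td1. Further genes of these lists were named after their values were seen. The 9 genes and the lists were chosen with earlier results of these data known. Promoter windows and miRNAs are from RefSeq (GRCm38.p6) and transcripts from GENCODE M21 (GRCm38), matched by symbol. No coordinate of the table itself was used.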

Additional observations from a re-analysis of the deposited data

Results flagged for a closer look

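Among the 18 sets of 6 embryos (9 genes in either diet), 2 held an embryo far from the other 5. Dazl in supplied replicate 4 was at 12.78, and its gap to the nearest supplied embryo was 0.727 of the range of the group, past the limit of Dixon's test. Dnd1 in supplied replicate 3 was at 9.31, with a gap of 0.657 of the range. Chance alone marks about 1 in 20 such sets. Without supplied replicate 4 the Dazl change was -0.51 (limma adjusted p = 0.00377), and without supplied replicate 3 the Dnd1 change was 0.20 (limma adjusted p = 0.113).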

How the results depend on the processing

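The 2 lower and 2 higher calls among the 9 genes, and the 1737 calls over all genes, were recomputed under every alternative. The count of lower genes was 2 without the filter, at a mean of log2(50), with median centring, with quantile normalization, with embryo weights and at an adjusted p below 0.1. It was 0 with a variance without a trend, a robust variance, the exact test, the random effect, averaged embryos, the somatic markers, either title number left out and an adjusted p below 0.01. The higher calls were 1 without the filter, without a trend, with weights, with the random effect, with averaged embryos, without title number 1 and below 0.01, 3 at log2(50), with median centring and below 0.1, and 0 with the exact test, the somatic markers and without title number 4. The exact test passed only genes whose groups did not overlap, so it could call none of the 9. Genes called overall were 558 with the exact test, 886 with the random effect, 298 with averaged embryos, 1 with the somatic markers, 729 without title number 1, 49 without title number 4, 2723 below 0.1 and 444 below 0.01. Leaving out single embryos gave 808 to 2315 genes, 0 to 3 lower and 1 to 3 higher among the 9. The title-number contrast called 15 genes, 0 without a trend and 24 at log2(50). Of the 7 pairs 2 passed, 2 to 2 with single embryos left out, and 0 without title number 4 or with averaged embryos, where 4 against 4 allows no p below 0.0286. After adjustment a pass there needs most of the pairs at that smallest p. The causes were not tested.

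Title number as a replicate block gave 2062 genes and the same counts among the 9, 2 lower and 2 higher. Same-numbered withdrawn and supplied embryos deviated with r of 0.27, -0.10, 0.18 and -0.17 in numbers 1 to 4, so the numbers were not taken to pair embryos across diets, and not every number correlated best with itself. What the number marks was not tested.

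Dazl was called in 16 of 28 alternatives, Ddx4 in 12, L1td1 in 25, Dnd1 in 6, Nanos3 in 8 and Ybx2 in 1. Adjusted p ran from 0.00377 to 0.297 for Dazl, from 0.0115 to 0.398 for Ddx4, from 2.28e-04 to 0.177 for L1td1 and from 0.0134 to 0.332 for Dnd1. Changes near 0 turned sign. Lin28a was at 0.0110 with median centring, 0.00790 with the random effect, 0.0357 with averaged embryos, 0.0191 without title number 1 and 0.0522 without number 4, and ran from -0.0421 to 0.0335 without single embryos. Pum2 was at 0.00439 with median centring, 0.0238 with averaging, 0.0218 without number 1 and 0.0259 without number 4, and ran from -0.0482 to 0.0332 without single embryos. Without single embryos, Trim71 ran from -0.0635 to 0.0195 and Lin28a minus Trim71 from -0.0374 to 0.0472. With no depth given, counting error could not be set beside low values such as those of Nanos3.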
